A study of Mus musculus with 4 samples.

Results

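Among the OTX2 regions called in definitive endoderm (DE) and not in the earlier primitive streak (PS), 905 of 31445 had a gap of 1 kb or less to a region that was called in both stages. These flanking DE only regions make up 2.88% of the DE only list (95% Wilson interval 2.7 to 3.07), and they lie beside 864 of the 6157 PS and DE regions, which is 14% (13.2 to 14.9). Members were chosen by position alone: the edge-to-edge gap between a DE only region and a PS and DE region on the same chromosome had to be 1 kb or less. All 4 region lists of the series together hold 39615 regions, with 1634 in the PS only list. The members are places where a region was called in DE close to one called in both stages. Whether DE only regions were also bound in PS below the calling threshold was not tested. The intervals given here cover counting error only. They treat each region as a separate count, although several regions can lie at the same gene.

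OTX2 was mapped by CUT&RUN, in which an antibody brings a nuclease to a chromatin protein and the released DNA is sequenced. The antibody was directed against the HA tag of OTX2 in the mouse lines 7H, 7H1 and 7H2 OTX2-dTAG-EGFP, all with a BL6/129 hybrid genotype. Epiblast stem cells (EpiSCs), cultured with NVP at 175 nM, FGF2 at 12.5 ng/ml and Activin A at 20 ng/ml, were differentiated for 16 h with 40 ng/ml Activin A and 3 uM CHIR to PS. A further 24 h with 100 ng/ml Activin A and 100 nM LDN gave DE, whose live cells were sorted with DAPI, and each sample used 500000 cells. The labelled libraries are 3 anti-HA libraries of PS, from 7H, 7H1 and 7H2, and 1 IgG library of PS, from 7H2. The labels name separate lines but do not say whether each is a single clone. All lines carry the tagged OTX2, and effects of the tag on binding were not tested. No library of DE or EpiSCs is among the labelled ones, and none was analysed here. The deposited lists give positions only, with no height, score or value per library. The depth of the libraries is unknown, replicates could not be compared, no test over samples was possible and anti-HA could not be set against IgG. Regions are not replicates of a stage, and the labelled cell types could not be set against marker genes.

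OTX2 is a homeodomain transcription factor of the early embryo that binds DNA sites with a TAATCC core and is needed for head and anterior endoderm formation. Definitive endoderm arises from the anterior primitive streak under high NODAL or activin signalling, and T-box, forkhead, GATA and SOX factors act together on its enhancers. Enhancers are often groups of short factor-bound stretches separated by nucleosomes, and a factor can occupy further stretches of such a group as other factors arrive.

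Sequence is shown for regions that lay in a RefSeq promoter window of GRCm38.p6 (mm10), which runs from 250 bases before to 50 bases after a listed start. Lhx1, a LIM homeobox gene of the anterior streak and endoderm, and Fzd5, which encodes a WNT receptor, are shown because a flanking region crossed the start of each gene. The F8a pair is shown because the PS and DE region and the flanking region, 76 bp apart, both reached into a single window. F8a encodes a huntingtin-associated protein. The last set is shown because a TAATCC core fell inside a region: the flanking region at Fam83e, the PS and DE neighbour at Coq7, which encodes an enzyme of ubiquinone synthesis, and the neighbour at Bcar3, an adaptor protein gene. All of these sequences were chosen after their values were seen, from more regions that met the same conditions. For example, a flanking region also crossed a start at Atg2a and at Zyx. At St3gal5, too, both regions of a pair reached into a single window. Each sequence is the part of the region inside the window and upstream of the start, 5′ to 3′ on the strand of the gene, and capitals mark TAATCC or its reverse complement GGATTA.
Lhx1 flanking DE only region, 249 bases of chr11:84525535-84525783, minus strand: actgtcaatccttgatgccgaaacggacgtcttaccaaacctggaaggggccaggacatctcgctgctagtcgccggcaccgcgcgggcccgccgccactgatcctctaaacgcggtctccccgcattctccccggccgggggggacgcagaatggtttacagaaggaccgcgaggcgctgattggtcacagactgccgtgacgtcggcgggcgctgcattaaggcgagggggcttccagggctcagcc
Fzd5 flanking DE only region, 80 bases of chr1:64737751-64737830, minus strand: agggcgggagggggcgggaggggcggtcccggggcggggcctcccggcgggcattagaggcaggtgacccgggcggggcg
F8a flanking DE only region, 99 bases of chrX:73228192-73228290, plus strand: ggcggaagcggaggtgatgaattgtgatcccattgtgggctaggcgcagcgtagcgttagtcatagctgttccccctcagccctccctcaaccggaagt
F8a flanked PS and DE region, 60 bases of chrX:73228056-73228115, plus strand: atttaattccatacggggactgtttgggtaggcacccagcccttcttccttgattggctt
Fam83e flanking DE only region, 182 bases of chr7:45720992-45721173, plus strand: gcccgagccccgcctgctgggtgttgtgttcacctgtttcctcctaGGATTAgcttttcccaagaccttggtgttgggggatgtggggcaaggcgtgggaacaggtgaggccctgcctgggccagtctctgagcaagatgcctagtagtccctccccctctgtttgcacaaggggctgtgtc
Coq7 flanked PS and DE region, 61 bases of chr7:118533357-118533417, minus strand: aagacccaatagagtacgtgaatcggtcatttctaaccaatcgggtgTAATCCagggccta
Bcar3 flanked PS and DE region, 63 bases of chr3:122419694-122419756, plus strand: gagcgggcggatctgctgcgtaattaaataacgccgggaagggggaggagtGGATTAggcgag

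The printed stretches at the developmental genes Lhx1 and Fzd5 hold no TAATCC core on either strand. They cover 249 of the 302 bp of the Lhx1 region and 80 of the 155 bp of the Fzd5 region, so they do not describe the whole called regions. Their GC content was 65.1% at Lhx1 and 83.8% at Fzd5. Over all promoter windows touched by a flanking region, the core occurred in 5 of 66, or 7.58% (3.28 to 16.5), against 223 of 3354 windows touched by other DE only regions, or 6.65% (5.85 to 7.54). Windows touched by flanked PS and DE regions held it in 6 of 66, or 9.09% (4.23 to 18.4), against 51 of 433 windows of other PS and DE regions, or 11.8% (9.07 to 15.2). Among all 32817 windows of the table, 2318 held it, which is 7.06% (6.79 to 7.35). A match describes letters in a window and is not a binding site, and a window without a match says nothing about the factor. Promoter windows were touched by 60 of the 905 flanking regions, or 6.63%, so the sequence of most members was not examined. Chromosome 18, with 28 of the flanking regions, had no promoter window.

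The other motif letters searched in the same windows, on both strands, were AGATAA for GATA factors, TGTTTAC for forkhead factors, ACAATGG for SOX factors, AGGTGTGA for T-box factors, GTCTAGAC for SMAD proteins, ATCAAAG for TCF/LEF factors and CAGCTG for E-box factors. The GATA letters occurred in 2 of the 66 windows of flanking regions, 3.03% (0.835 to 10.4), and in 6.26% (5.49 to 7.13) of windows of other DE only regions. In the windows of flanked PS and DE regions they occurred in 10 of 66, 15.2% (8.44 to 25.7), beside 11.2% of all windows. The SOX letters were found in 3 of 66 windows of flanking regions, 4.55% (1.56 to 12.5), against 1.55% (1.18 to 2.03) for other DE only regions and 3.67% of all windows. The TCF/LEF letters were found in 0 of 66 windows of flanking regions, with an upper Wilson bound of 5.5%, against 3.01% (2.48 to 3.65) for other DE only regions. Among all windows 3.73% held them. Windows of flanked PS and DE regions held the TCF/LEF letters in 5 of 66, 7.58% (3.28 to 16.5), and the SOX letters in 4 of 66, 6.06% (2.38 to 14.6). In windows of flanking regions, forkhead letters occurred in 2 of 66, E-box letters in 10, and T-box and SMAD letters in 0. With 66 windows these intervals are wide, and among the named motifs only the GATA interval of flanking regions ended below the share of all windows. This was not particular to flanking regions. For other DE only regions the GATA, SOX, forkhead and TCF/LEF intervals all ended below the share of all windows.

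Flanking regions were not spread evenly over the 1 kb they were drawn from. The 946 pairs of a flanking region and a PS and DE neighbour had 28 pairs with a gap of up to 100 bp, 130 with 100 to 200 bp, 171 with 200 to 300 bp and 130 with 300 to 400 bp. Pairs then thinned to 100 at 400 to 500 bp, 99 at 500 to 600 bp and between 68 and 76 per 100 bp out to 1 kb. Past the limit, 48 pairs had gaps of 1000 to 1100 bp, and gaps of 2 to 5 kb held 40.6 pairs per 100 bp on average. Relative to that level the density was 0.69-fold in the first 100 bp, 4.22-fold at 200 to 300 bp, 1.77-fold at 900 to 1000 bp and 1.2-fold at 1 to 2 kb. The excess of DE only regions around PS and DE regions therefore lay mainly at gaps of 100 to 600 bp, well inside the limit set by the rule.

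No flanking region touched its neighbour. The lists are exclusive by name, so this may only restate how they were made. The smallest gap was 65 bp, the quartiles were 237, 400 and 660 bp, and the largest was 999 bp. The members just inside the limit had gaps of 998, 998 and 999 bp, and the DE only regions just outside it 1002, 1003 and 1003 bp. Measured between midpoints the pairs were 140 to 1252 bp apart, with a median of 562.5 bp. Gap and midpoint distance depend on how regions were bounded. That is not given in the sources used here for the list of both stages, in which 186 regions were under 50 bp wide, against 0 in the DE only list.

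**Figure D1:**
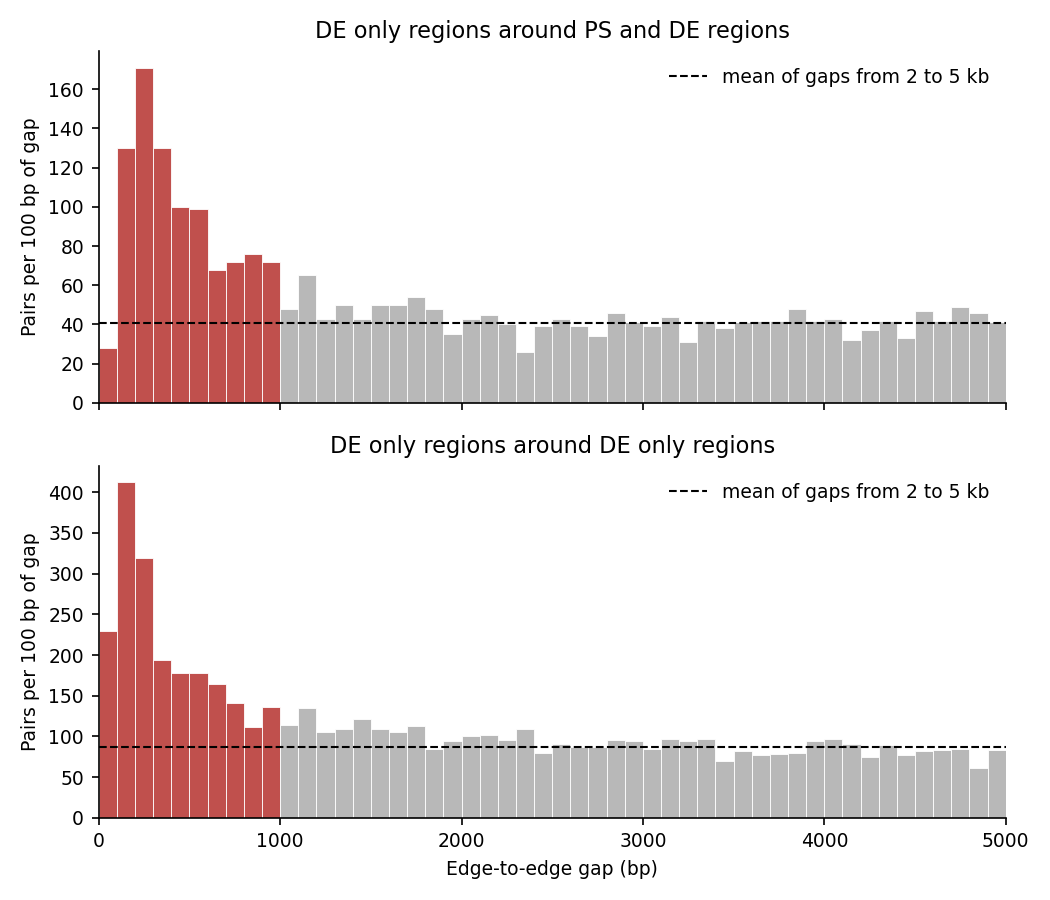
Number of pairs per 100 bp of edge-to-edge gap (bp), for DE only regions around PS and DE regions (upper panel) and around other DE only regions (lower panel), with gaps of up to 1 kb in red and the mean of gaps from 2 to 5 kb as a dashed line. Both profiles stand above their dashed line at 100 to 600 bp, and in the first 100 bp the upper panel falls below its line while the lower panel stays above it.

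Crowding at this range was also seen around regions of the other lists. Around PS and DE regions there were 154 DE only regions per 1000 centres within 1 kb, against 65.9 per 1000 centres and kb at 2 to 5 kb, a ratio of 2.33. Taking DE only regions themselves as centres, the values were 131 and 55.5, a ratio of 2.36. PS only centres gave 78.3 and 43.9, a ratio of 1.79 from 128 pairs, and EPI and PS centres gave 66 and 53.6, a ratio of 1.23 from 25 pairs (EPI is written as in the name of that list, which does not spell it out). Counted by centre, 14% of PS and DE regions had a DE only region within 1 kb, against 12.2% of DE only regions (11.9 to 12.6), 7.59% of PS only regions (6.4 to 8.97) and 6.33% of EPI and PS regions (4.29 to 9.25). Regions called in DE thus had a close DE only neighbour more often than regions called only before DE, while PS and DE and DE only centres had almost equal ratios to their own surroundings.

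The shape of the profile differed at the shortest gaps. At gaps up to 100 bp, pairs of a DE only with a PS and DE region stood at 0.69-fold their 2 to 5 kb level, against 2.62-fold for the 229 pairs of DE only regions with each other. The most common 100 bp class was 200 to 300 bp for pairs with a PS and DE region, and 100 to 200 bp, with 412 pairs, for DE only regions with each other. PS only regions around PS and DE regions also had few pairs at the shortest gaps, with 2 pairs up to 100 bp, 12 at 100 to 200 bp and 18 at 200 to 300 bp. Whether overlap matching between stages removed close neighbours from the single-stage lists was not tested. Of DE only regions 2.88% had a PS and DE region at 1 kb or less, against 78 of 1634 PS only regions, 4.77% (3.84 to 5.92), whose list is far shorter.

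PS and DE regions with more DE only regions in the wider neighbourhood were flanked more often. With 0 DE only regions at 1 to 50 kb, 113 of 1110 were flanked, 10.2% (8.54 to 12.1). With 1 or 2 such regions the share was 13.1% (11.8 to 14.4), with 3 to 5 it was 15.9% (14.4 to 17.6), and with 6 or more it was 20.6% (17.2 to 24.4). Width went the same way, with 17 of 186 regions under 50 bp flanked, 9.14% (5.78 to 14.1), and 45 of 248 regions of 300 bp or more, 18.1% (13.8 to 23.4). The intervals of the lowest and highest density classes do not overlap, and those of the lowest and highest width classes overlap slightly.

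**Figure D2:**
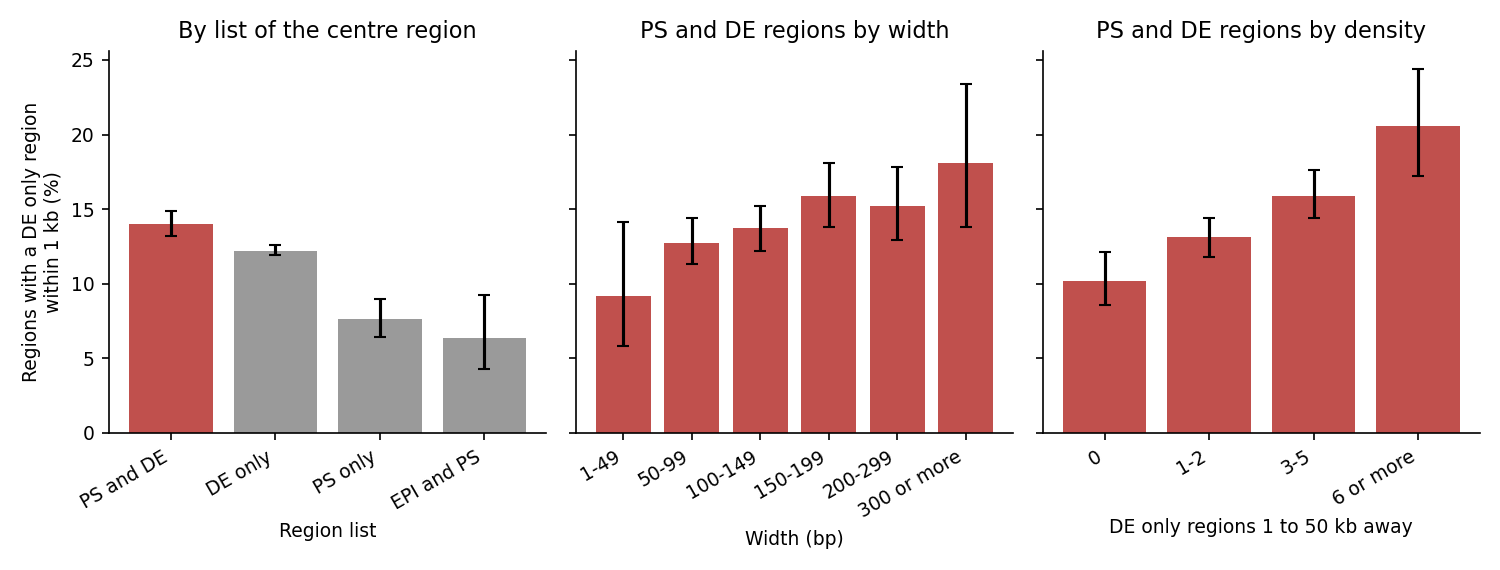
Share of regions (%) with a DE only region within 1 kb, by list of the centre region (left), and among PS and DE regions by their width in bp (middle) and by the number of DE only regions 1 to 50 kb away (right); bars are shares and lines are 95% Wilson intervals. PS and DE centres reach 14% and EPI and PS centres 6.33%, and the share runs from 10.2% to 20.6% with rising density.

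From the side of the flanking regions, a further DE only region lay 1 to 50 kb away from 87.4% of flanking regions (85.1 to 89.4), against 78.8% of other DE only regions (78.3 to 79.3). A PS and DE region other than those within 1 kb lay at 1 to 50 kb from 45.9% of flanking regions (42.6 to 49.1), against 31.5% of other DE only regions (31.0 to 32.0). PS only regions were found at that distance from 14.8% of flanking regions (12.6 to 17.3) and 9.3% of other DE only regions (8.98 to 9.63). Flanking regions were chosen for lying beside a PS and DE region and other DE only regions for not doing so, so the PS and DE values partly restate the choice. Flanked PS and DE regions differed less from the rest of their list, with a PS and DE region at 1 to 50 kb for 44.8% of flanked (41.5 to 48.1) and 40.2% of other PS and DE regions (38.9 to 41.6). A PS only region lay at that distance from 14.4% of flanked (12.2 to 16.8) and 13.7% of other PS and DE regions (12.8 to 14.6).

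Most members formed simple pairs. Of the 864 flanked PS and DE regions, 788 had 1 flanking region, 70 had 2 and 6 had 3. Flanking regions lay on the low-coordinate side in 470 of 946 pairs, 49.7% (46.5 to 52.9), so both sides were about equally frequent. Where a PS and DE region had 2 or 3 flanking regions, these lay on both sides of it in 38 of 76 cases and on a single side in the other 38. Conversely, 41 flanking regions had 2 PS and DE neighbours each. Joining members and neighbours within 1 kb gave 827 runs, of which 726 held 1 flanking and 1 shared region. Among runs of 3 regions, a shared region stood between 2 flanking regions in 28, in 30 both flanking regions stood on the same side, and in 6 a flanking region stood between 2 shared ones. A further 3 runs of 4 regions alternated, so that a flanking region stood between 2 shared ones there too. Runs spanned 207 to 2167 bp with a median of 751 bp, of which a median of 125 bp lay in flanking and 133 bp in shared regions.

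Flanking regions had nearly the same widths as the rest of their list. Their width ranged from 62 to 570 bp with a median of 117 bp and quartiles of 85 and 175 bp, against a median of 119 bp and quartiles of 86 and 172 bp for other DE only regions. Regions under 100 bp made up 37.7% of flanking regions (34.6 to 40.9) and 36.0% of other DE only regions (35.5 to 36.6). By gap, in steps of 200 bp, median width was 111 bp for gaps up to 200 bp, 112 bp for 200 to 400 bp, 130.5 bp for 400 to 600 bp, 111 bp for 600 to 800 bp and 133.5 bp for 800 to 1000 bp. In broader bands it was 110 bp for gaps up to 250 bp, 113.5 bp for 250 to 500 bp and 127 bp for 500 to 1000 bp. The flanked PS and DE regions had a median width of 130 bp, against 121 bp for other PS and DE regions. In 415 of 946 pairs, 43.9% (40.7 to 47.0), the flanking region was the wider member.

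Relative to genes, flanking regions resembled DE only regions in general, while flanked PS and DE regions stood somewhat apart from the rest of their list. Protein-coding genes had an end within 1 kb of the midpoint for 117 of 905 flanking regions, 12.9% (10.9 to 15.3), and for 14.2% of other DE only regions (13.9 to 14.6). The same was true of 13.1% of flanked PS and DE regions (11.0 to 15.5) and 10.1% of other PS and DE regions (9.36 to 11.0). Flanked PS and DE regions were chosen for lying within 1 kb of a DE only region. Their shares are therefore not independent of those of DE only regions. Listed starts alone gave 14.9% for flanking (12.7 to 17.4) and 13.6% for other DE only regions (13.2 to 13.9), and 14.8% for flanked (12.6 to 17.3) and 10.4% for other PS and DE regions (9.63 to 11.3). The table of starts also lists further starts and further genes, so its shares and the gene-end shares are not on the same set of genes. It holds no start on chromosome 18, so regions there count as having none within 1 kb. Some 45.6% of flanking regions lay inside a gene (42.4 to 48.9), 43.3% outside but within 100 kb of one (40.1 to 46.6) and 11.0% farther away (9.17 to 13.3). Exons and introns were not told apart.

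Both regions of a pair usually had the same gene-end class and the same gene, which a gap of 1 kb or less largely sets in advance. In 106 of 946 pairs, 11.2%, both lay at a gene end, in 15 only the flanking region did and in 15 only its neighbour. Flanking regions were assigned to the same gene as the neighbour in 830 of 946 pairs, 87.7% (85.5 to 89.7). The rest include pairs with no gene within 100 kb, as 100 of the 905 flanking regions lay farther than that from any. They are therefore not all pairs split between different genes. Where a start lay within 5 kb, the flanking region was the nearer of the pair to it in 144 of 262 pairs, 55% (48.9 to 60.9). With the nearest listed start farther away, the flanking region was the nearer in 327 of 656 pairs, 49.8% (46.0 to 53.7). Pairs on chromosome 18, which had no listed start, are in neither count. Flanking regions were thus found toward and away from starts about equally.

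**Figure D3:**
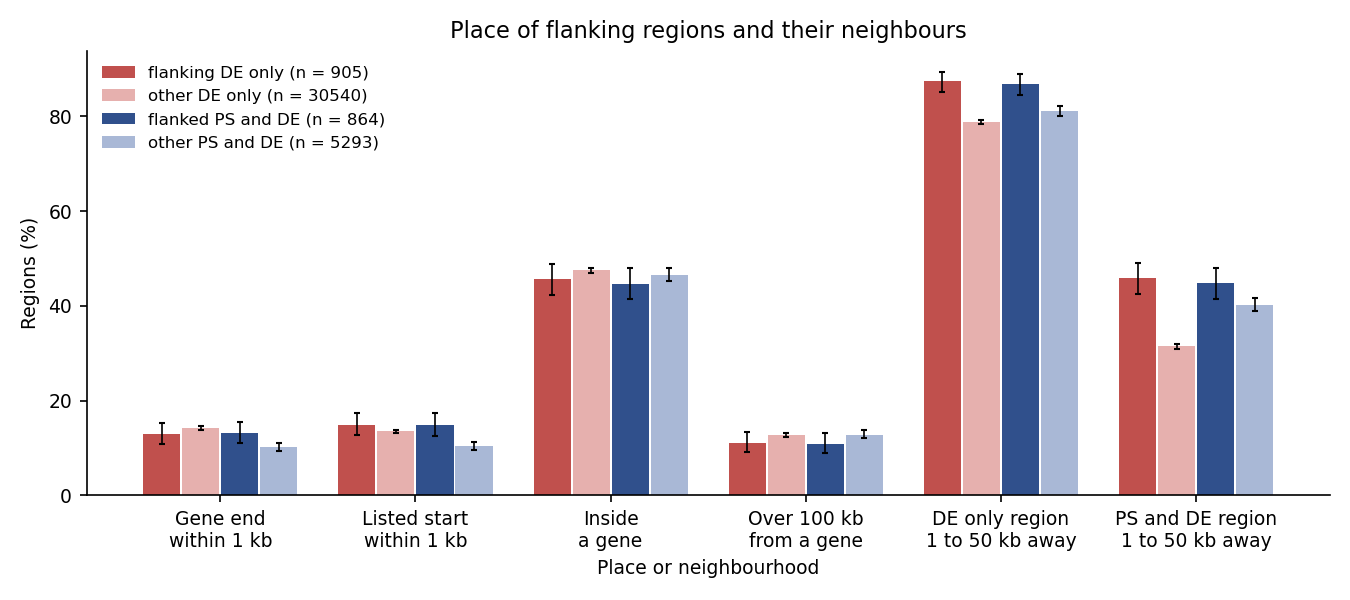
Share of regions (%) by place relative to protein-coding genes and by neighbours 1 to 50 kb away, for 905 flanking and 30540 other DE only regions and for 864 flanked and 5293 other PS and DE regions; lines are 95% Wilson intervals. Gene-end shares of flanking (12.9%) and other DE only regions (14.2%) lie close together, whereas a PS and DE region 1 to 50 kb away was found for 45.9% of flanking and 31.5% of other DE only regions.

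By chromosome, the flanked share of PS and DE regions ran from 9.69% on chromosome 1 (44 of 454) to 19.4% on chromosome X (21 of 108), with 18.6% on chromosome 19 (39 of 210). These shares are descriptions and the low counts on the smaller chromosomes limit them.

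Each region was assigned to the protein-coding gene whose span holds its midpoint or, failing that, to the nearest gene up to 100 kb away. In this way 662 of 21887 genes, 3.02%, had at least 1 flanking region, and among the 2844 genes that had both a DE only and a PS and DE region 654 did, 23.0%. Of the PS and DE regions assigned to any gene, 770 of 5383 were flanked, 14.3% (13.4 to 15.3). These 3 shares are the background for the gene lists below. Assignment is by position, and no contact between a region and a promoter was measured.

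Definitive endoderm genes were the list with the most members beside flanking regions. Of its 20 genes 8 had at least 1, and these were 8 of the 14 with both kinds of region, beside 23.0% for all such genes. At these genes 15 of 47 PS and DE regions were flanked, 31.9% (20.4 to 46.2), beside 14.3% for all genes. The list overlaps others and was chosen with earlier results of these data known. PS and DE regions at these genes also had more DE only regions at 1 to 50 kb, 4.26 on average against 2.49 for all genes, and the part of this density in the share was not tested. Assignment within 50 kb gave 22.9% for the list (12.1 to 39.0), an interval that includes the 14.2% of all genes. Leaving out Lhx1 gave 26.8% (15.7 to 41.9), and the genes of no other list had 6 of 23 shared regions flanked, 26.1% (12.5 to 46.5), which also includes the share of all genes.

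Lhx1 (chr11:84517975-84525534, minus strand) had 3 flanking regions among its 7 DE only regions and 6 PS and DE regions. The first, chr11:84525482-84525783, is 302 bp wide and crosses the gene's start, 249 bp from a shared region of 68 bp at chr11:84526033-84526100. The second, chr11:84529840-84530212, with 373 bp wider than its neighbour of 167 bp, stood 4.31 kb upstream, 179 bp from the shared region chr11:84530392-84530558. The third, chr11:84603990-84604200, lay 78.5 kb away, 363 bp from one shared region and 849 bp from the next. At Lhx1 every flanking region was over 200 bp wide and lay on the gene's side of its shared neighbour, at or upstream of the start.

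Foxa2, a forkhead factor that opens chromatin in endoderm, had 2 flanking regions among 12 DE only and 6 PS and DE regions. That at chr2:147968308-147968430 lay 74.4 kb from the gene, 240 bp from chr2:147968671-147968769. The other, chr2:148061496-148061711, lay 14.5 kb upstream and 978 bp from a shared region of 25 bp, chr2:148060493-148060517, so it was among the members near the limit and beside one of the very short shared regions. Foxa1, a close relative of Foxa2, had 1 flanking region, chr12:57538387-57538459, 2.17 kb beyond the gene and 401 bp from chr12:57538861-57538946. Gsc, a homeobox gene of the organizer, had 1 at chr12:104555598-104555745, 82.4 kb away and 215 bp from chr12:104555148-104555382. Both forkhead genes and Gsc therefore had their flanking regions outside the gene, at distances of 2.17 to 82.4 kb.

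Cxcr4, the chemokine receptor by which endoderm is often sorted, had 2 flanking regions among 6 DE only and 6 PS and DE regions. One, chr1:128532492-128532557, lay 55.6 kb to one side of the gene, 348 bp from its neighbour. The other, chr1:128654119-128654427, lay 61.8 kb to the other side and between 2 shared regions, 883 bp from chr1:128653039-128653235 and 254 bp from chr1:128654682-128655001. That run of 3 regions spans 1963 bp and is among the 6 runs made of a flanking region between 2 shared ones.

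Eomes, the T-box factor that starts endoderm formation, had a flanking region inside the gene near its end, chr9:118485495-118485640, 832 bp from chr9:118486473-118486651 just beyond it. Gata6, a GATA factor of endoderm, had 3 flanking regions on chromosome 18 among 11 DE only and 3 PS and DE regions. One lay 335 bp from its neighbour on the low side of the gene, and the other 2 stood 373 and 704 bp from a single shared region beyond the high side, between 11.0 and 11.9 kb from the gene in all 3 cases. Otx2 itself had 10 DE only regions and 1 PS and DE region, and that shared region, chr14:48708094-48708364, was flanked at 448 bp by chr14:48708813-48709071, 41.2 kb upstream of the gene. Of the remaining 12 genes of the list, among them Sox17, a SOX factor of endoderm, none had a flanking region.

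**Figure D4:**
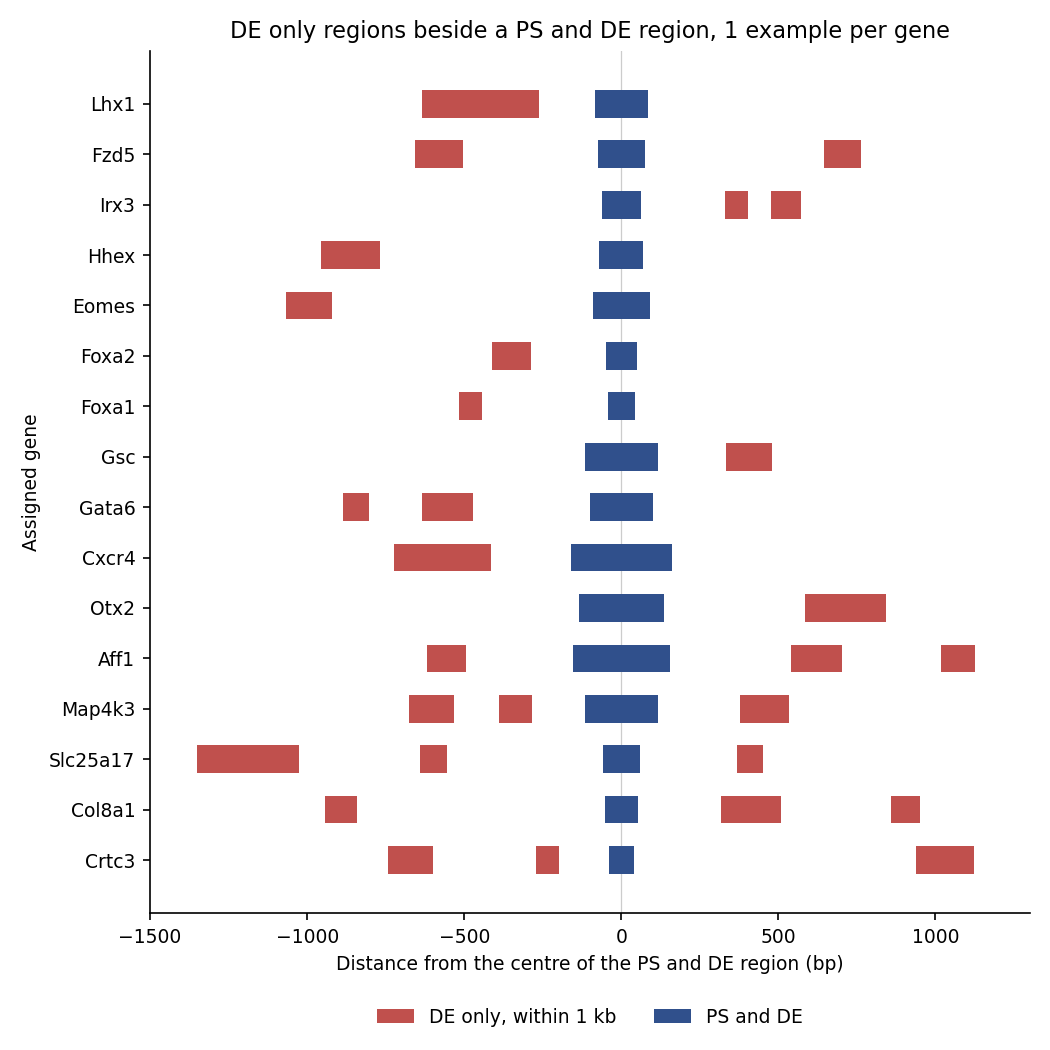
Position of flanking DE only regions (red) around 1 PS and DE region (blue) per assigned gene, as distance in bp from the centre of the PS and DE region, in the direction of rising coordinates. Lhx1 and Eomes have a flanking region on the low side, Fzd5 has 1 on either side, Irx3 and Gata6 have 2 on a single side, and Aff1, Map4k3, Slc25a17, Col8a1 and Crtc3 have 3, on both sides.

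Anterior endoderm and foregut genes had flanking regions at 6 of 21 genes, which were 6 of the 13 with both kinds of region, and 10 of 34 shared regions were flanked, 29.4% (16.8 to 46.2). Fzd5 had 3 DE only regions and a single PS and DE region, chr1:64738261-64738407, which was flanked on both sides. The flanking region chr1:64737676-64737830 crosses the gene's start, 430 bp away, and chr1:64738979-64739097 stood 571 bp to the upstream side. Hhex, a homeobox factor of the anterior endoderm, had 1 inside the gene at chr19:37436866-37437051, 700 bp from its only shared region at chr19:37437752-37437891. Nog, which encodes a secreted BMP antagonist, had 2, with gaps of 319 and 548 bp, at 93.7 and 18.3 kb from the gene. Frzb, a secreted WNT antagonist gene, had 1 at chr2:80399412-80399487, 359 bp from a shared region of 309 bp. Of the list's other members with a flanking region, Lhx1 and Otx2 are also on the endoderm list. With genes of any other list left out, 1 of 6 shared regions was flanked. Leaving out Lhx1 gave 21.4% (10.2 to 39.5) and assignment within 50 kb 26.9% (13.7 to 46.1), and both intervals include the share of all genes.

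Primitive streak genes had flanking regions at 7 of 20 genes, 7 of the 14 with both kinds, and 11 of 33 shared regions were flanked, 33.3% (19.8 to 50.4). Every one of these 7 genes is also on another list: Lhx1, Gata6, Eomes and Gsc with endoderm, Cyp26a1 and Fgf8 with posterior endoderm and Axin2 with the WNT pathway. The streak share is thus not separate from theirs. Without Lhx1 it was 25.9% (13.2 to 44.7), an interval that includes the 14.3% of all genes. Axin2, a negative feedback gene of WNT signalling, had 1 flanking region of 294 bp, chr11:108909795-108910088, 7.74 kb upstream of the gene and 933 bp from chr11:108911022-108911221. Cyp26a1, which encodes an enzyme that degrades retinoic acid, had 1 at chr19:37718561-37718793, 17.0 kb beyond the gene and 444 bp from chr19:37719238-37719441. Fgf8, a growth factor gene of the streak, had 1 at chr19:45734326-45734423, 796 bp from its neighbour. The posterior endoderm and hindgut list had flanking regions at 3 of 12 genes. Of its shared regions 3 of 11 were flanked, 27.3% (9.75 to 56.6), an interval that includes the share of all genes. It added Hoxb1, a Hox gene of the hindbrain and gut. The Hoxb1 flanking region, chr11:96368686-96368776, lay 0.432 kb beyond the gene and 458 bp from chr11:96369235-96369327.

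**Figure D5:**
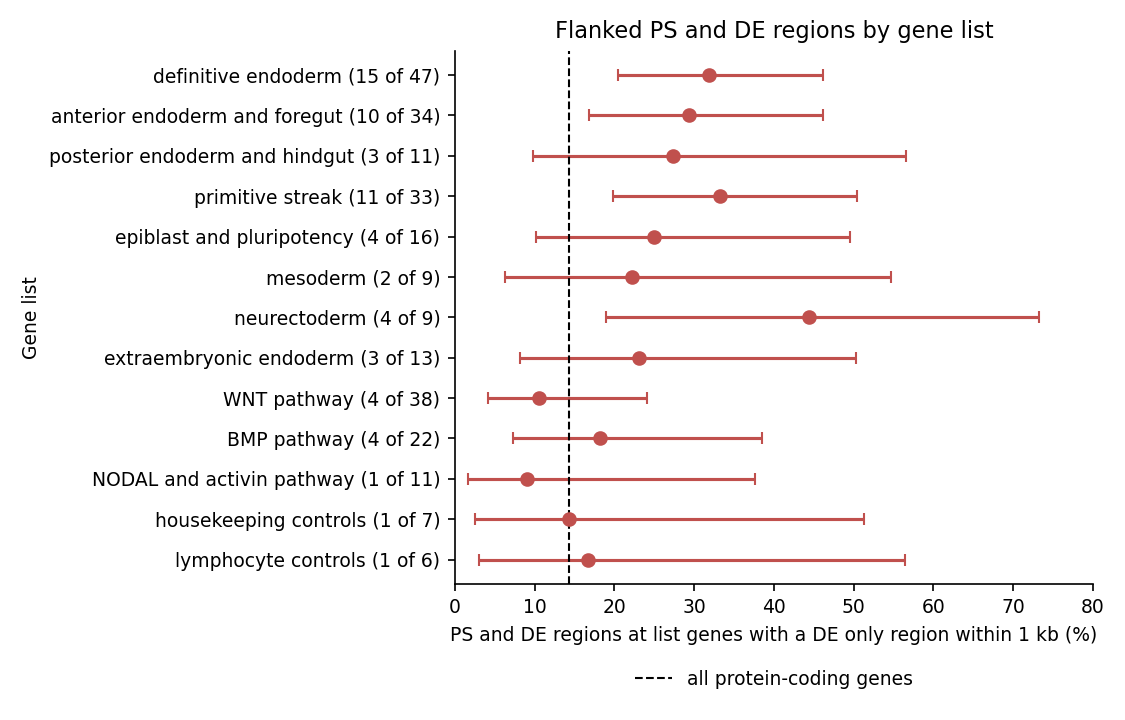
Share (%) of PS and DE regions assigned to the genes of each list that have a DE only region within 1 kb, with 95% Wilson intervals and, in brackets, the counts; the dashed line is the 14.3% of all protein-coding genes. Intervals of the endoderm, anterior, streak and neurectoderm lists lie above the line, and those of the other 9 lists cross it. Without Lhx1 the anterior (21.4%) and streak (25.9%) intervals cross it too. Regions of the same gene were counted as separate, so the intervals do not cover differences between genes, and the 4 of 9 neurectoderm regions come from 3 genes.

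For WNT pathway genes, the flanked share of shared regions was near the background. Of 27 genes 20 had both kinds of region, the highest number of the 13 lists, and 4 of those 20 had a flanking region, close to the 23.0% background. Flanked were 4 of 38 shared regions, 10.5% (4.17 to 24.1), an interval that includes the 14.3% of all genes. Of the DE only regions at these genes, 5 of 92 were flanking, 5.43%, beside 2.93% for all genes. The members were Fzd5, Axin2, Frzb and Znrf3, a membrane ubiquitin ligase gene that limits WNT receptors. The Znrf3 region, chr11:5412731-5412896, lay inside the gene with a gap of 762 bp. BMP pathway genes had flanking regions at 3 of 17 genes and at 4 of 22 shared regions, 18.2% (7.31 to 38.5). Besides Nog these were Bmp2, a BMP ligand gene, whose 230 bp region chr2:133617453-133617682 lay 54.6 kb away with a gap of 275 bp, and Smad6, an inhibitor of BMP signalling, whose region lay in the gene with a gap of 765 bp. The NODAL and activin list had 1 of 20 genes, Furin, a convertase that cleaves growth factor precursors, with a gap of 280 bp at chr7:80422846-80423077.

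Lists of other lineages also had members beside flanking regions. Neurectoderm genes had 4 of 9 shared regions flanked, 44.4% (18.9 to 73.3), at 3 of 15 genes, and their shared regions had the highest mean number of DE only regions at 1 to 50 kb, 5.44. Irx3, a homeobox gene of the neural plate, had 3 flanking regions, of which chr8:91802379-91802449 and chr8:91802523-91802618 stood on the same side of chr8:91801986-91802109 with gaps of 269 and 413 bp, all less than 1 kb upstream of the gene. Lmx1b, a LIM homeobox gene, had 2 inside the gene on either side of a shared region, of 222 and 551 bp, with gaps of 680 and 306 bp. Pax3, a paired-box gene of the dorsal neural tube, had 2 in the same arrangement, of 73 and 518 bp, with gaps of 200 and 542 bp. The wider regions at Lmx1b and Pax3 were among the widest flanking regions, of which the maximum was 570 bp. By contrast, the Irx3 regions were 71, 72 and 96 bp wide, below the median of 117 bp. The 73 bp region at Pax3 and the 71 and 72 bp regions at Irx3 were below the lower quartile of 85 bp.

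Epiblast and pluripotency genes had flanking regions at 3 of 20 genes. Of their shared regions 4 of 16 were flanked, 25% (10.2 to 49.5), beside 14.3% for all genes. Utf1, a chromatin factor of pluripotent cells, had 2 of its 3 DE only regions in the longest run of all, 2167 bp at chr7:139950272-139952438, in which flanking and shared regions alternated. Sall4, a zinc finger gene of pluripotent cells, had both of its DE only regions around chr2:168762652-168762798 inside the gene, with gaps of 134 and 162 bp. Otx2 is the third gene. Mesoderm genes had flanking regions at 2 of 16 genes, Kdr, a VEGF receptor gene, and Foxc1, a forkhead gene. Their flanked share was 22.2% (6.32 to 54.7), from 2 of 9 shared regions. Extraembryonic endoderm genes had them at 2 of 18 genes, Gata6 and Bmp2, with 3 of 13 shared regions flanked, 23.1% (8.18 to 50.3). The shares of the epiblast, mesoderm and extraembryonic lists were above that of all genes, which their wide intervals include. The housekeeping controls had 1 of 20, Gapdh, a glycolytic enzyme gene, and the lymphocyte controls 1 of 20, Ptprc, a leukocyte phosphatase gene. These control lists had 1 of 7 and 1 of 6 shared regions flanked, shares of 14.3% and 16.7%.

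Counted over all 13 lists with each gene once, 29 of 207 genes had a flanking region, and 39 of 181 shared regions were flanked, 21.5% (16.2 to 28.1), beside 14.3% for all genes. The mean number of DE only regions at 1 to 50 kb was 3.77 around those shared regions and 2.49 for all genes. Among PS and DE regions of the whole series with 3 to 5 such neighbours the flanked share was 15.9%, and with 6 or more 20.6%.

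The genes with the most flanking regions were not on these lists. Of the 662 genes, 549 had 1 flanking region, 90 had 2, 19 had 3, 3 had 4 and Aff1 had 7. Aff1, a subunit gene of a transcription elongation complex, held its 7 among 22 DE only and 7 PS and DE regions, all inside the gene. Its shared region chr5:103780436-103780746 had 3 of them, 339 bp to the low side and 384 and 863 bp to the high side. Another shared region, chr5:103760593-103760758, had 2 on its low side with gaps of 313 and 519 bp. The genes with 4 were Camkmt, which encodes a calmodulin methyltransferase and had 9 shared regions, Map4k3, a kinase gene, and Syne3, a nuclear envelope protein gene. At Camkmt 1 flanking region lay inside the gene and the others 15.1, 30.3 and 55.9 kb outside it.

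Of the 6 shared regions with 3 flanking regions, 5 had them on both sides, at Aff1, Map4k3, Slc25a17, a peroxisomal carrier gene, Col8a1, a collagen gene, and Crtc3, a coactivator gene. At Map4k3 the shared region chr17:80802397-80802629 had gaps of 417 and 167 bp on the low side and 260 bp on the high side, and at Crtc3 chr7:80605949-80606028 had gaps of 560 and 158 bp on the low side and 896 bp on the high side. The flanking regions of these groups lay 73.0 to 74.1 kb outside Map4k3 and 90.8 to 92.6 kb outside Col8a1, but inside Aff1, Slc25a17 and Crtc3. At Syne3 the shared region chr12:105011139-105011564, 426 bp wide, had all 3 on the side of the gene, with gaps of 468, 737 and 970 bp, the nearest crossing the gene's start. After Utf1, the longest runs lay at Acot11 (2152 bp), an acyl-CoA thioesterase gene, Commd7 (2068 bp), Atg2a (2055 bp), an autophagy gene, and Cxcr4. In the runs at Acot11, Commd7 and Atg2a a single shared region stood between 2 flanking regions. Those at Acot11 lay 21.9 and 23.9 kb outside the gene, and those at Commd7 and Atg2a inside.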

How the data were processed

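The authors deposited 4 lists of OTX2 regions (DE only, PS and DE, PS only, EPI and PS) on mm10 as positions, with no value per library. The submitters' processing notes name MACS2 2.2.6, Bowtie2 2.3.5.1, bedtools 2.30, Picard 2.26.10 and SAMtools 1.14, with no settings. Not given in the sources used here are the peak threshold, the use of IgG, the pooling of replicates and the matching between stages.

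Starts were converted to count from 1. All pairs with an edge-to-edge gap of 1 kb or less were listed with Python 3.11.15, pandas 2.3.3 and numpy 2.4.6. Genes (21887 protein-coding, 17492 with a strand) and promoter windows came from RefSeq tables of GRCm38.p6, and all 207 list symbols matched. No genome sequence was used, so the planned motif search in windows around region midpoints was not run, and promoter windows were searched in its place, which was decided after the data were seen.

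Shares have 95% Wilson intervals, and no test was planned or run. The counting was tested on simulated regions. Members and gene lists were chosen with earlier results of these data known. Genes named are those with the most flanking regions (the 19 tied genes with 3 were left out), up to 5 per list, Otx2, and the genes of the most flanked shared regions and the longest runs. Foxa1, Gsc and the promoter examples fall outside this rule and were chosen after their values were seen. Alternatives changed the gap, the regions used, the measure of distance, the gene-end window and the gene assignment.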

Additional observations from a re-analysis of the deposited data

How the results depend on the processing

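The number of members follows the gap and the widths admitted. With a gap of 500 bp or less there were 546 flanking regions, 534 flanked PS and DE regions and 425 genes, and with DE only regions of at least 150 bp there were 308, 314 and 244. That width limit also gave a median width of 202 bp by construction, a gene-end share of 10.4%, and 19.1% of PS and DE regions flanked at definitive endoderm genes, beside 5.09% for all genes. A gene-end window of 2.5 kb gave 20.0% for flanking and 20.3% for other DE only regions. Without genes of another list, 16.7% of PS and DE regions at anterior endoderm genes were flanked, from 1 of 6 regions, and the streak list kept no region. Without members beside 2 PS and DE regions, a setting chosen after the data were seen, as were all list settings, 864 flanking regions were left. Widening the gap to 2 kb (1343 flanking regions), PS and DE regions of at least 50 bp (888), merging DE only regions (865), midpoint distance (809) and gene assignment within 50 kb (619 genes) or 1 Mb (733 genes) moved the counts by less than 1.5 times. The motif windows of 400 bp and of the regions' own bases were not run, for lack of a genome sequence. No library could be left out, since the lists give no value per library. No paired analysis was possible because no result comes from a test over samples.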
